A study of Mus musculus with 10 samples.

Results

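The glucose transporters described here are 7 genes of the SLC5 and SLC2 families, taken by gene symbol from the 45707 rows of the deposited jejunal expression table and followed in all 10 mice. They are Slc5a1 (SGLT1), Slc5a4a (SGLT3a), Slc5a4b (SGLT3b) and Slc5a9 (SGLT4) among the sodium-coupled carriers, and Slc2a1 (GLUT1), Slc2a2 (GLUT2) and Slc2a7 (GLUT7) among the facilitative carriers. All 7 of 7 had a normalised read count of at least 10 in at least 5 mice and so were among the 14301 genes tested. RNA sequencing was carried out on jejunum from 5 Vil-Cre males and 5 Vil-Cre:NDI1 males, 1 library per mouse. Every animal carried the Villin-Cre transgene, which is active in intestinal epithelial cells, and the Vil-Cre:NDI1 mice also carried NDI1, the yeast NADH dehydrogenase, behind a lox-stop-lox sequence at ROSA26. The mice were littermates 8 to 12 weeks old that had gone without food for 16 to 18 h, and all received water by oral gavage 1 h before the jejunum was taken and flushed. Groups treated with metformin were not analysed here, so the comparison is of NDI1 expression alone.

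Absorptive enterocytes take up dietary glucose from the lumen through SGLT1, which moves glucose together with sodium down the sodium gradient that the basolateral sodium pump maintains. Glucose leaves the cell for the blood mainly through GLUT2, a low-affinity facilitative carrier of the basolateral membrane, while GLUT1 is the widely expressed carrier that supplies glucose for the cell's own use. SGLT3 proteins are better known as glucose sensors than as carriers, SGLT4 transports mannose and other sugars, and GLUT7 is a carrier of the intestinal brush border whose substrates are less settled. The jejunum was sequenced as whole tissue, so fewer cells of a type and less RNA per cell cannot be told apart in any of these values.

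The libraries held between 10145705 and 12371530 reads on genes. The transgene check followed the labels, with 0 NDI1 reads in 4 Vil-Cre libraries, 1 in the other, and 1002 to 2659 in the Vil-Cre:NDI1 libraries. The labelled tissue was checked on 12 enterocyte markers, all of which were tested, and their summed normalised counts lay between 362930 and 648693 in Vil-Cre mice and between 553833 and 741899 in the Vil-Cre:NDI1 group. The lowest of these sums belonged to 1 control, Vil-Cre 5, in which 11 of the 12 markers lay below every other control. The same library held the lowest value of all 10 mice for 5 of the 7 transporters and the highest for 1, so the genotype difference of each transporter is also given without it. On 5 villus tip markers that library did not stand apart, with 1 of the 5 below every other control and a sum of 27127 inside the 24478 to 45933 of the others.

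The genes of the family lie on 4 chromosomes of GRCm38, and the SGLT3 genes are close relatives in sequence and position. Slc5a4b (chromosome 10, 76057494 to 76110961, minus strand) and Slc5a4a (chromosome 10, 76147451 to 76189265, plus strand) face away from each other across 36489 bases that hold 1 annotated gene. Their coding sequences were identical at 79.45% of aligned positions, against 71.95% and 73.39% for Slc5a1 with Slc5a4a and Slc5a4b. The longest run of bases that their transcripts shared was 50, shorter than the 100 sequencing cycles of the reads, so a full-length read could not match both exactly. Slc5a1 (chromosome 5, 33104219 to 33162870), Slc2a2 (chromosome 3, 28697903 to 28731359), Slc2a1 (chromosome 4, 119108711 to 119137983) and Slc2a7 (chromosome 4, 150148972 to 150168482) are on the plus strand, and Slc5a9 (chromosome 4, 111875375 to 111902918) is on the minus strand. The antisense or nested genes that overlap Slc5a1, Slc5a4b, Slc2a1 and Slc2a2 reached a normalised count of 23.3 at most.

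The sequence just upstream of the RefSeq transcription start (250 bases, GRCm38.p6, read 5′ to 3′ on the gene's strand) was at hand for 6 of the 7 members, all but Slc5a9. It is printed for the SGLT3 pair and Slc2a2, which form the closest 2 positive pairs across mice, and for Slc2a1, which varied in the opposite sense. Capitals mark every match on either strand to 5 short motifs. The first was the box named for its letters CCAAT, which meets its own reverse complement over 2 bases in Slc5a4b. The TATA motif was searched as TATAAA. The GATA motif was searched as TGATAA. The E-box was searched as CACGTG. The GC motif was searched as GGGCGG. The windows are chr10:76147201-76147450 on the plus strand for Slc5a4a, chr10:76111019-76111268 on the minus strand for Slc5a4b, chr3:28697653-28697902 on the plus strand for Slc2a2 and chr4:119108495-119108744 on the plus strand for Slc2a1.
Slc5a4a: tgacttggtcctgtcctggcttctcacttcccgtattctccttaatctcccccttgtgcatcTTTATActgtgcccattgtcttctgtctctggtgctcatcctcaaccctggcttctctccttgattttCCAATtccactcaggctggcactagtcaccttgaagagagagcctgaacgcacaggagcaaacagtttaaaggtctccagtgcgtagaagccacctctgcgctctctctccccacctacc
Slc5a4b: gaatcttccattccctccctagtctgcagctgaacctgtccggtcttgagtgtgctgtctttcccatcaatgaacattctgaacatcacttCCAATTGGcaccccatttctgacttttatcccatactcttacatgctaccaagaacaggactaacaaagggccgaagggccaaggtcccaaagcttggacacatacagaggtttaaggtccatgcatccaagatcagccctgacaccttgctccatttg
Slc2a2: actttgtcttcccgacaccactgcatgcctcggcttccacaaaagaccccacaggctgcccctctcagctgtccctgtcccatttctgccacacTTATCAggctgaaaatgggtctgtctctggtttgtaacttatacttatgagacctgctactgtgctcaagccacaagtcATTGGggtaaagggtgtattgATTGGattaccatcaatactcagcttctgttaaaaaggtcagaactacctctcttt
Slc2a1: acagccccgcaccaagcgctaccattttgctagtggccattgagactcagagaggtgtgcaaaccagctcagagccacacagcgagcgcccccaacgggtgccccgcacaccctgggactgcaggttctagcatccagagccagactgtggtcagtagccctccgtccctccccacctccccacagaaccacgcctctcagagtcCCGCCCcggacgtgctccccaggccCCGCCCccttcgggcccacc
The windows of Slc5a4a, Slc5a4b and Slc2a2 each held CCAAT or its complement, which 33.8% of 32851 mouse promoter windows also hold. Slc2a1 held 2 matches to the GC motif (in 32.7% of windows), and Slc5a4a held 1 to the TATA motif (12.4%). A GATA match was found in Slc2a2 and in Slc2a7 (7.94% of windows), and the E-box match was in Slc5a1 (6.02%). The longest run that the SGLT3 pair shared in the 300 bases around the start was TGATCATTAA, which begins 7 bases after the RefSeq start in Slc5a4a and 10 after it in Slc5a4b. This run occurs in 12 of the 32851 windows, but it was picked because the pair shares it. Runs of such length were also shared by other members. In the 250 upstream bases, Slc5a4a and Slc2a2 shared 12 bases. Slc5a4b with Slc2a2 and Slc5a4a with Slc2a1 shared 10, and the SGLT3 pair 8. These are matches of letters, and the motifs were chosen with the sequences in view.

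Slc5a1 was by far the most abundant of the 7 transcripts, at 10921 normalised counts per kilobase of exon (SD 1759, n = 10 mice), the 56th highest of 26067 genes on that scale. It made up 80.4% ± 3.16 (SD, n = 10) of the summed per-kilobase level of the 7 genes, from 75.5% to 85.1% in single mice. Slc2a2 came next at 1054 per kilobase, and the level of Slc5a1 was 8.05 to 15.9 times that of Slc2a2 within a mouse, higher in 10 of 10. The ratio was highest in Vil-Cre 5 (15.9) and Vil-Cre:NDI1 4 (14.9), the mice with the lowest enterocyte marker mean of their genotype. In Vil-Cre:NDI1 4 the markers did not move together. Fabp2 (102522) and Anpep (119660) were exceeded only in Vil-Cre:NDI1 5, and Sis and Mgam were not the lowest of that genotype. The other markers of the list were.

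Next in the order were the SGLT3 genes, Slc5a4b at 627 and Slc5a4a at 606 normalised counts per kilobase. They could not be ordered, since Slc5a4b was the higher in 5 of 10 mice and the ratio of their levels ran from 0.696 to 1.45. Slc2a7 followed at 228, Slc5a9 at 131 and Slc2a1 at 49.5 per kilobase. Neighbours in this order overlapped in range everywhere but between Slc5a1 and Slc2a2, although Slc2a2 was above Slc5a4b in 9 mice, Slc5a4a above Slc2a7 in 10, Slc2a7 above Slc5a9 in 9, and Slc5a9 above Slc2a1 in 10. The annotated transcripts of Slc5a4a and Slc2a7 have little noncoding exon (87 and 292 bases) beside 1222 to 4186 bases in the other 5, which enters these per-kilobase levels.

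**Figure D1:**
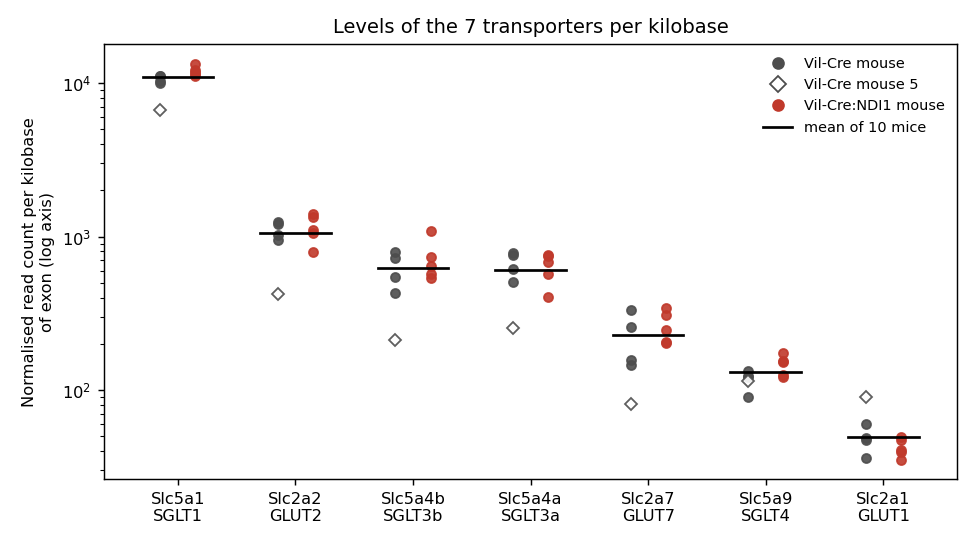
Normalised read counts per kilobase of exon (log axis) of the 7 transporters in each of 10 mice, with the mean of the 10 as a line. Slc5a1 sits near 10921, about 10.4 times the mean level of Slc2a2, and Slc2a1 is lowest at 49.5.

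None of the 7 transporters passed the test between genotypes after adjustment over all genes (limma on log2(value + 1), Benjamini-Hochberg adjusted p = 0.998 for each), and the values of the genotypes overlapped in all 7. Across the 14301 genes, the adjusted test called 1 gene, the NDI1 transgene itself (0.00699%), 4.24% of genes had an unadjusted p under 0.05, and 0.699% had values that did not overlap between genotypes. The mean log2 value was higher in Vil-Cre:NDI1 mice for 6 of the 7 members and lower for Slc2a1, while 51.2% of all genes tested had a higher mean there. The median log2 difference was 0.30 for the members and 0.01 for all genes, and without Vil-Cre 5 the members' median was 0.17 with 5 of the 7 higher. Unadjusted p was under 0.05 for 1 member with limma (Slc5a9) and for 2 with the exact permutation test (Slc5a1 and Slc5a9), which gave an unadjusted p under 0.05 in 4.46% of all genes.

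SGLT1 is the carrier through which luminal glucose enters the enterocyte. Slc5a1 normalised counts were 42525, 45780, 40962, 45819 and 27464 in Vil-Cre mice 1 to 5 and 49726, 46905, 45387, 48748 and 54892 in Vil-Cre:NDI1 mice 1 to 5. Vil-Cre 5 stood well below the other 9 mice, and 4 of the 5 Vil-Cre:NDI1 values were above every control. The difference was 0.30 on the log2 scale (SE 0.15, 95% interval -0.03 to 0.63), with an unadjusted exact permutation p of 0.0238 and an adjusted p of 0.999 over all genes. Without Vil-Cre 5 it was 0.17 (interval -0.07 to 0.40). With libraries scaled to the 12 enterocyte markers instead of by size factor it was 0.01 (interval -0.35 to 0.37). This scaling takes the genotype gap in the marker mean, 0.29, off the log2 difference of every gene. The median of all genes became -0.28 with it, so the fall is not particular to any transporter.

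The SGLT3 genes had the widest range across mice among the sodium-coupled carriers. Slc5a4a counts were 1033, 1262, 1598, 1554 and 520 in Vil-Cre mice and 1395, 1166, 1559, 829 and 1537 in Vil-Cre:NDI1 mice, a 3.08-fold range over the 10. The genotype means, 1193 ± 441 and 1297 ± 305 (SD, n = 5 each), differed by less than the spread within either group. Its log2 difference was 0.19 (SE 0.29, interval -0.45 to 0.83), and it turned to -0.085 without Vil-Cre 5.

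Slc5a4b counts were 1746, 1369, 2320, 2538 and 682 in Vil-Cre mice and 1823, 2052, 2351, 1732 and 3466 in Vil-Cre:NDI1 mice. The highest value, in Vil-Cre:NDI1 5, was 5.08 times the lowest, in Vil-Cre 5, and the other 8 mice lay between with the genotypes interleaved. The means were 1731 ± 747 and 2285 ± 702 (SD, n = 5 each), a log2 difference of 0.49 (SE 0.33, interval -0.22 to 1.21, adjusted p = 0.998 with limma). Without Vil-Cre 5 the difference was 0.19 (interval -0.32 to 0.70).

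SGLT4 was the member whose level in Vil-Cre 5 lay among those of the other controls. Slc5a9 counts were 637, 466, 685, 633 and 594 in Vil-Cre mice and 654, 792, 806, 636 and 905 in Vil-Cre:NDI1 mice. Vil-Cre 5 was at 0.982 times the mean of the other controls, and 3 of the 5 Vil-Cre:NDI1 values exceeded all controls. The means were 603 ± 83.1 and 758 ± 113 (SD, n = 5 each), a 1.26-fold difference (95% interval 1.03 to 1.53). On the log2 scale this was 0.33 (SE 0.13), with an unadjusted limma p of 0.0258 and an exact permutation p of 0.0476. Slc5a9 ranked 304 among the 14301 genes by limma p, and neither test passed after adjustment over all genes (adjusted p = 0.998 and 0.999). The difference was the same without Vil-Cre 5 (0.33) and was 0.04 (interval -0.40 to 0.48) with the enterocyte scaling.

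GLUT2 carries glucose out of the enterocyte at its basal side. Slc2a2 counts were 5476, 5904, 7134, 6912 and 2428 in Vil-Cre mice and 8076, 6323, 7726, 4593 and 6062 in Vil-Cre:NDI1 mice. Vil-Cre 5 was again the lowest, at 0.382 times the mean of the other controls, and Vil-Cre:NDI1 4 the next lowest. The log2 difference of 0.30 (SE 0.27, interval -0.30 to 0.90) was 0.02 (interval -0.33 to 0.38) without Vil-Cre 5 and 0.01 (interval -0.37 to 0.39) with the enterocyte scaling.

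GLUT7 is encoded next to the fructose carrier GLUT5 gene, Slc2a5, on the same strand with 4802 bases between them. Slc2a7 counts were 273, 293, 622, 481 and 152 in Vil-Cre mice and 637, 457, 386, 377 and 579 in Vil-Cre:NDI1 mice. Among the controls, mice 3 and 4 lay within the Vil-Cre:NDI1 range and the other 3 below it. The means were 364 ± 186 and 487 ± 116 (SD, n = 5 each), with the largest log2 difference of the 7 members, 0.55 (SE 0.33, interval -0.17 to 1.27, adjusted p = 0.998 with limma). It was 0.28 (interval -0.30 to 0.85) without Vil-Cre 5 and 0.78 without Vil-Cre 3. DESeq2 on all 10 libraries gave Slc2a7 a log2 difference of 0.42 (adjusted p = 0.91). It passed in DESeq2 on the 8 libraries other than Vil-Cre 3 and 4 (log2 difference 1.03, adjusted p = 0.00479). Those left out are the controls with the highest Slc2a7, and the choice was made after seeing the data. That fit called 276 of 15601 genes, and edgeR on the same libraries gave Slc2a7 an adjusted p of 0.401. Slc2a5 itself was at 1616 ± 488 and 2135 ± 274 normalised counts (SD, n = 5 each; log2 difference 0.45, limma adjusted p = 0.998), and its difference was 0.25 without Vil-Cre 5. With DESeq2, Slc2a5 did not pass on all 10 libraries (adjusted p = 0.709). It passed in the same DESeq2 fit of 8 libraries (log2 difference 0.66, adjusted p = 0.0406) and not in edgeR (adjusted p = 0.441). Among the controls, Slc2a5 too was highest in Vil-Cre 3 and 4.

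GLUT1 was the rarest of the 7, with 122 to 327 reads per library. Slc2a1 counts were 170, 210, 126, 167 and 318 in Vil-Cre mice and 124, 174, 137, 166 and 143 in Vil-Cre:NDI1 mice. Vil-Cre 5 was the highest, at 1.89 times the mean of the other controls, and without it the genotypes covered much the same range. The log2 difference was -0.35 (SE 0.22, interval -0.83 to 0.13) with all mice and -0.16 (interval -0.53 to 0.21) without Vil-Cre 5. Scaled to the enterocyte markers it was -0.64 (interval -1.41 to 0.13).

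**Figure D2:**
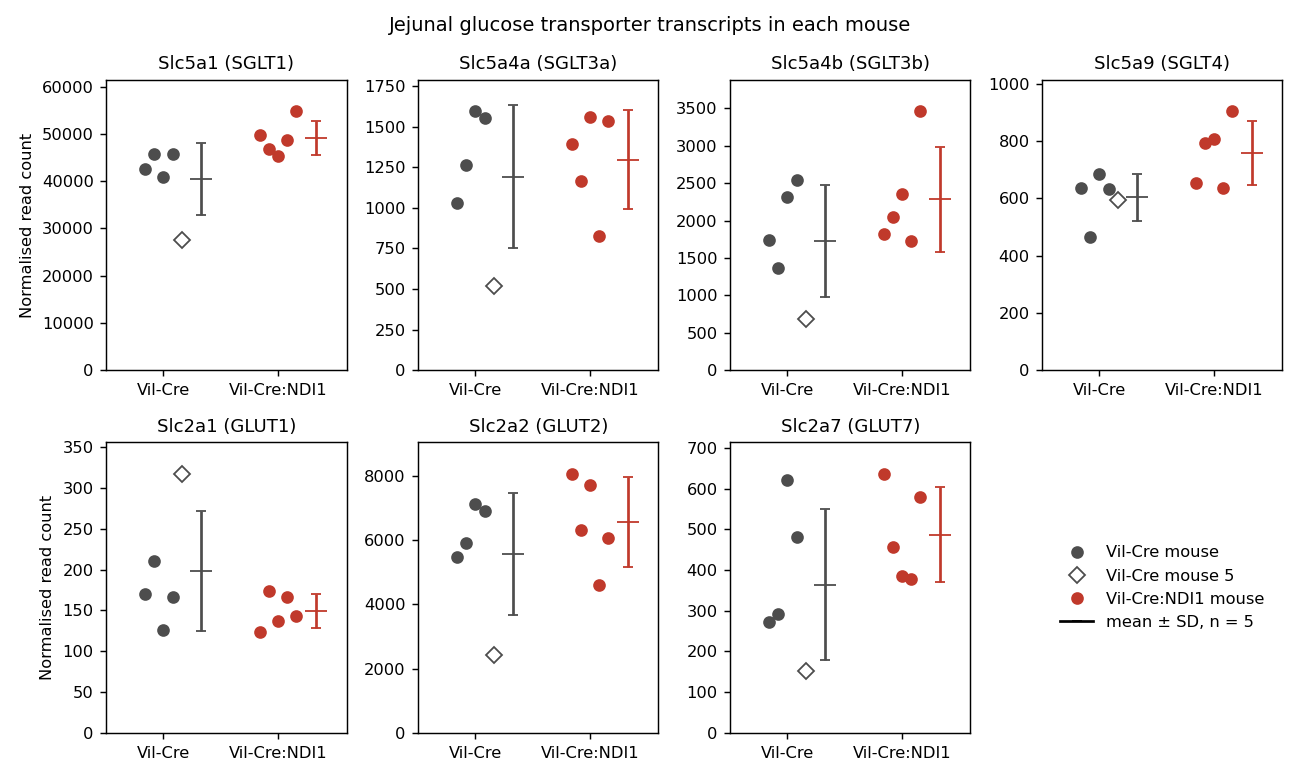
Normalised read counts of the 7 transporters in each mouse (points), with the mean ± SD of each genotype (n = 5). The open diamond is Vil-Cre 5, lowest of 10 in 5 panels (Slc5a1, Slc5a4a, Slc5a4b, Slc2a2 and Slc2a7) and highest for Slc2a1.

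For 5 of the 7 members, the 95% interval lay within a 2-fold change in either direction, as it did for 79.6% of all genes tested. Those of Slc5a4b and Slc2a7 reached 2.31-fold and 2.41-fold higher in Vil-Cre:NDI1 mice. A 2-fold difference thus lay inside the interval of both.

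**Figure D3:**
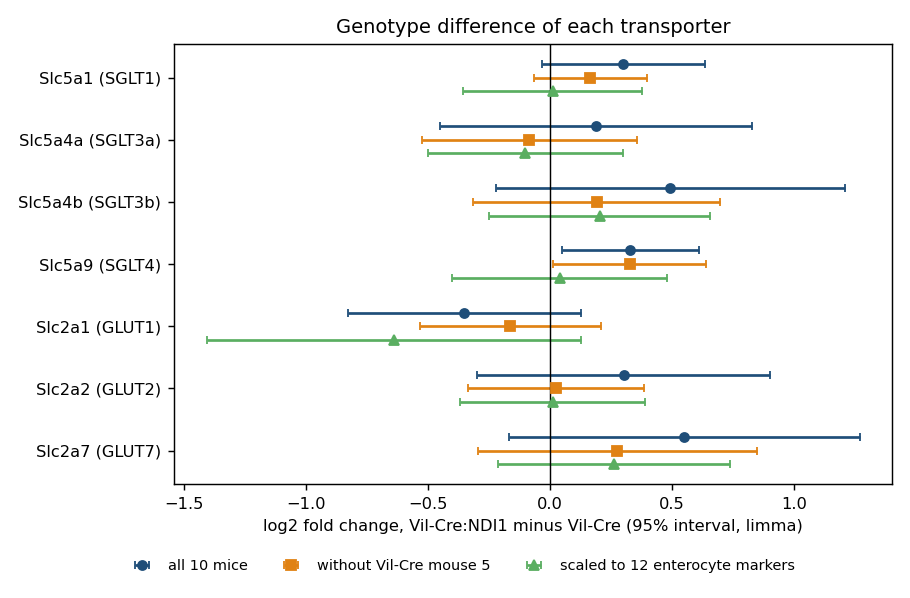
Log2 fold change (Vil-Cre:NDI1 minus Vil-Cre) of each transporter with its 95% interval from limma, for all 10 mice, without Vil-Cre 5, and with libraries scaled to 12 enterocyte markers. With all mice, only the interval of Slc5a9 (0.05 to 0.61) lies to 1 side of 0, and with the enterocyte scaling none does. That scaling lowers the log2 difference of every gene by the same 0.29.

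Vil-Cre 5 was far from its genotype mean in 6 of the 7 transporters and in the enterocyte markers, and near it in Slc5a9 (-0.01). It lay below its genotype mean by 0.54 log2 units in Slc5a1, 1.09 in Slc5a4a, 1.2 in Slc5a4b, 1.1 in Slc2a2 and 1.1 in Slc2a7, and by 0.65 in the mean of the 12 markers, while Slc2a1 lay 0.75 above. Among the Vil-Cre:NDI1 mice, mouse 4 was the lowest in Slc5a4a, Slc5a4b, Slc2a2, Slc2a7, Slc5a9 and the marker mean. The marker mean was 0.29 log2 units higher in Vil-Cre:NDI1 than in Vil-Cre mice (two-sided exact permutation p = 0.206, n = 5 each) and 0.13 higher without Vil-Cre 5.

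**Figure D4:**
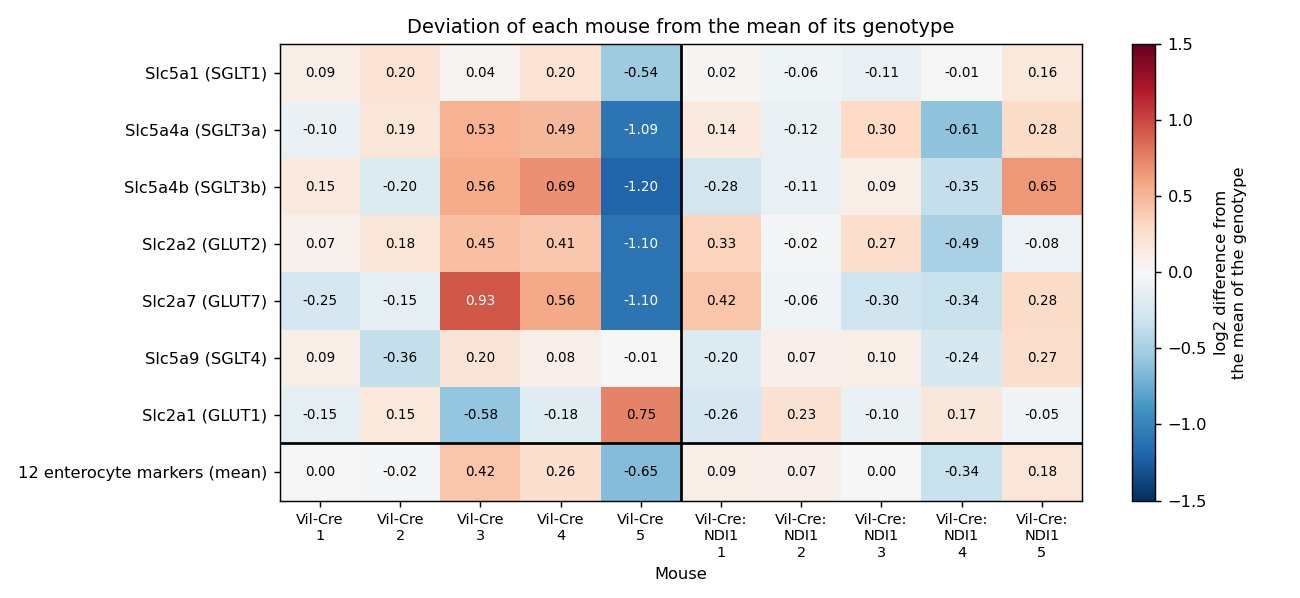
Log2 difference of each mouse from the mean of its genotype, for the 7 transporters and the mean of 12 enterocyte markers. The column of Vil-Cre 5 is low in 5 transporters and in the markers (-0.65), near 0 in Slc5a9 (-0.01) and high in Slc2a1 (0.75).

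Over the 10 mice, after centring each genotype, the marker mean correlated with Slc5a4a (r = 0.95, rho = 0.81), Slc2a7 (r = 0.93, rho = 0.94), Slc2a2 (r = 0.91, rho = 0.73) and Slc5a4b (r = 0.90, rho = 0.79), and negatively with Slc2a1 (r = -0.88, rho = -0.75). For r, the permutation p-values of these 5 within genotypes were 0.00326, 0.000556, 0.00583, 0.00229 and 0.01, and after adjustment over the 7 relations computed they ranged from 0.00389 to 0.014. For rho, the adjusted permutation p ranged from 0.00486 to 0.044. Slc5a1 (r = 0.75, rho = 0.47, adjusted permutation p = 0.113 for r and 0.216 for rho) and Slc5a9 (r = 0.42, rho = 0.62, adjusted permutation p = 0.249 and 0.0799) did not pass. With the 2 mice of most extreme marker mean left out, r stayed between 0.73 and 0.86 for Slc5a4a, Slc5a4b, Slc2a2 and Slc2a7. It was -0.50 for Slc2a1, 0.42 for Slc5a1 and 0.56 for Slc5a9. These values kept the genotype means of all 10 mice. Values without Vil-Cre 5 alone were centred again on the mice kept, so the 2 sets are not directly comparable. Without Vil-Cre 5 alone, r was 0.86 for Slc5a4a, 0.85 for Slc2a7, 0.73 for both Slc5a4b and Slc2a2, 0.68 for Slc5a9, -0.66 for Slc2a1 and 0.05 for Slc5a1.

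Other cell types were also measured in Vil-Cre 5. All 4 proliferation markers were above every other control there. Their sum was 2692 in that mouse against 1419 to 1928 in the other controls and 1502 to 2793 in Vil-Cre:NDI1 mice. Of the 4 crypt stem cell markers, 2 were below every other control and 1 above, with a sum of 1303 against 1367 to 2079. Of the 4 T cell markers, 3 were below every other control and 1 above, with a sum of 314 against 300 to 640. Of the 4 B and plasma cell markers, 2 were above every other control, with Ms4a1 at 236 against at most 7.83 in the other 9 mice and Cd79a at 315 against at most 53.9, and 1 was below. The summed B and plasma cell level ranged from 1775 to 3562 in Vil-Cre mice, with 2019 in Vil-Cre 5, and was 1348 to 4522 in the Vil-Cre:NDI1 group, and Ms4a1 was at 0 in Vil-Cre 2. Of the adipocyte and erythroid markers (4 each), 2 in each list were below every other control and none above, with sums of 930 against 1108 to 1974 and of 122 against 152 to 304. The 5 hepatocyte markers were each within the range of the other controls (sum 815 against 28.3 to 1478), and their sum was 7.84 to 237 in the Vil-Cre:NDI1 group. The part of these cells in the transporter values was not tested.

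The 7 transporters make 21 pairs, and their centred log2 values were correlated over the same 10 mice, which also share library scaling and tissue composition. After adjustment over the 21 pairs, 8 passed for r (within-genotype exact permutation over 14400 shuffles, adjusted p from 0.0306 to 0.0496), 5 of them positive and 3 negative. Ranks gave a weaker picture, in which no pair passed and the smallest adjusted p for rho was 0.0671 by the same exact permutation. Slc5a1, Slc5a4a, Slc5a4b, Slc2a2 and Slc2a7 were positively correlated in all 10 of their pairs, with r from 0.70 to 0.95. The closest pair was Slc5a4a and Slc2a2 (r = 0.95, rho = 0.83), followed among the positive pairs by the neighbours Slc5a4a and Slc5a4b (r = 0.88, rho = 0.79). With the 2 mice of most extreme Slc5a4a left out and the genotype means of all 10 mice kept, r was 0.69 and 0.66 in these pairs.

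Slc2a1 was negatively correlated with each of these 5, with r from -0.88 to -0.67. The 3 that passed were those with Slc2a2 (r = -0.88, rho = -0.88), Slc2a7 (r = -0.88, rho = -0.75) and Slc5a4a (r = -0.85, rho = -0.76), and they had an adjusted permutation p of 0.0306, 0.0313 and 0.0313 for r. Slc5a9 passed with none of them, with r from -0.02 to 0.55.

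The number of pairs that passed depended on single mice. It was 0 without Vil-Cre 3, Vil-Cre 4, Vil-Cre 5 or Vil-Cre:NDI1 4 (smallest adjusted permutation p from 0.0552 to 0.105) and 6 to 10 without any 1 of the other 6 mice. Slc5a4a with Slc2a2 kept an r of 0.85 to 0.98 whichever mouse was left out. Without Vil-Cre 5, the 4 correlations of Slc5a1 with Slc5a4a, Slc5a4b, Slc2a2 and Slc2a7 took values between -0.20 and 0.28, against 0.66 to 0.90 without any 1 of the other mice, so they rest on Vil-Cre 5. The correlations of Slc2a2 with Slc5a4a (r = 0.85) and of Slc2a1 with Slc2a7 (r = -0.73) and Slc2a2 (r = -0.64) stayed large over the other 9 mice. Their permutation p-values were 0.0111, 0.0521 and 0.0538 unadjusted, and 0.117, 0.238 and 0.238 adjusted. Over the same 9 mice, r was 0.66 for Slc5a4a with both Slc5a4b and Slc2a7. Slc5a4b and Slc5a9 had r = 0.87 over the other 9 mice (rho = 0.87), against 0.55 over all 10. After scaling to the enterocyte markers, none passed either, and r was 0.77 for Slc5a4a with Slc2a2 and -0.78 for Slc2a1 with Slc2a7. That scaling takes the same marker mean off both genes of a pair, which alone can shift r, so it does not test the pairs. In 1 further relation, not adjusted, the adjacent genes Slc2a7 and Slc2a5 had r = 0.92 over 10 mice (rho = 0.85, exact permutation p = 0.00139 and 0.00736). For this pair r was 0.86 without Vil-Cre 5. It was 0.75 without the 2 mice of most extreme Slc2a7, with the genotype means of all 10 mice kept.

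**Figure D5:**
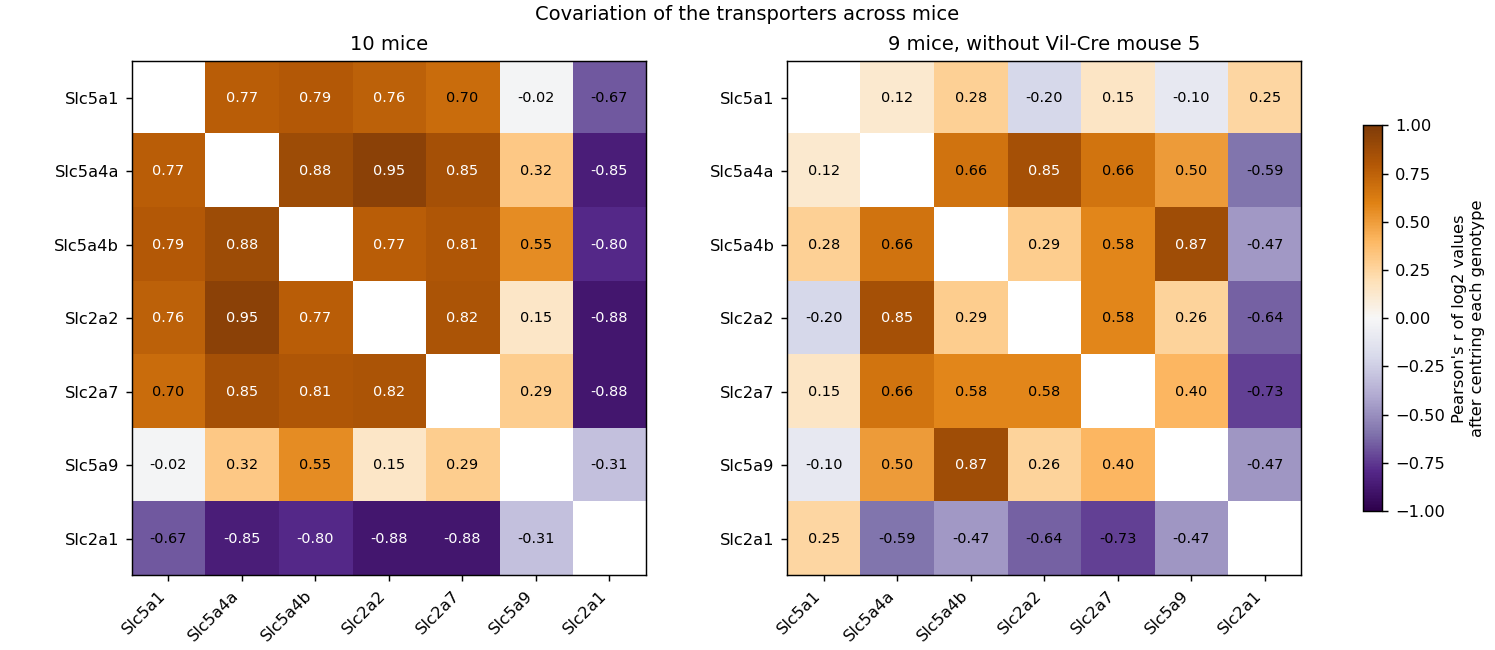
Pearson's r of log2 values after centring each genotype, for the 21 pairs of transporters, over 10 mice (left) and over 9 mice without Vil-Cre 5 (right). The row of Slc5a1 goes from 0.70 to 0.79 with Slc5a4a, Slc5a4b, Slc2a2 and Slc2a7 on the left to between -0.20 and 0.28 on the right, while Slc5a4a with Slc2a2 stays at 0.85.

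Among the genes whose centred values were most like those of Slc5a1 over the 10 mice, of all genes tested, were Mgam (r = 0.97, rho = 0.95), Mpp4 (r = 0.96, rho = 0.87), Sis (r = 0.96, rho = 0.94) and Gab1 (r = 0.95, rho = 0.92). Mgam and Sis encode the brush border enzymes that split starch products and sucrose into free sugars, and both were in the enterocyte marker list. Without Vil-Cre 5 these 4 values of r were between 0.78 and 0.92. For Slc2a2 the most alike were Idh1 (r = 0.97, rho = 0.95), Lct (r = 0.96, rho = 0.90), which encodes lactase, Gata4 (r = 0.96, rho = 0.92), a transcription factor of the proximal small intestine, Nt5m (r = 0.96, rho = 0.94) and Slc5a11 (r = 0.96, rho = 0.88), a sodium-coupled inositol carrier. Over the 9 mice without Vil-Cre 5, r with Gata4 was 0.96, and the other 4 lay between 0.84 and 0.89. The genes in both lists were picked for a high r over these same mice, so these values do not test the relations.

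In the wider families and pathway, 48 genes in 5 lists were examined, 40 were tested, and 0 passed after adjustment in either direction with limma, while 1 had an unadjusted p under 0.05. Without Vil-Cre 5 these counts were also 0 and 1. Of 9 other SLC2 carriers, 8 were tested, 6 with a higher and 2 with a lower mean in Vil-Cre:NDI1 mice, and the median log2 difference was 0.16 (0.22 without Vil-Cre 5). Besides Slc2a5, the smallest p belonged to Slc2a12 (GLUT12), which was at 11.1 ± 5.00 and 35.7 ± 38.5 normalised counts in Vil-Cre and Vil-Cre:NDI1 mice (SD, n = 5 each). Slc2a3, the neuronal and immune cell carrier GLUT3, was highest in Vil-Cre 5, at 59.2 against 11.7 to 43.1 in the other 9 mice. This was not particular to Slc2a3. Slc2a6, which was not tested, was at 35.9 there against 0.98 to 20.6, and Hk2 of the phosphorylation list at 697 against 234 to 634.

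Of 9 other SLC5 carriers, 6 were tested, with a median log2 difference of 0.08 (-0.04 without Vil-Cre 5) and 3 means on either side. Slc5a12, a sodium-coupled lactate carrier, was at 2524 ± 1330 and 3173 ± 808, and Slc5a11 at 1419 ± 449 and 1648 ± 229 normalised counts (SD, n = 5 each). All 6 sodium pump subunits were tested, with a median of -0.01 (0.04 without Vil-Cre 5). Atp1b1, which encodes a beta subunit of the pump, had the smallest p of these, at 22618 ± 3325 and 27005 ± 2489 normalised counts (SD, n = 5 each; log2 difference 0.26, and 0.17 without Vil-Cre 5, limma adjusted p = 0.998).

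Among 8 genes of glucose phosphorylation and release, 6 were tested, with a median of -0.06 (-0.19 without Vil-Cre 5). Hk1, hexokinase 1, which traps glucose in the cell by phosphorylation, was the 1 gene of the 48 with an unadjusted p under 0.05 and the 1 among the named pathway genes whose genotypes did not overlap. Its counts ran from 193 to 386 in Vil-Cre mice and between 121 and 189 in Vil-Cre:NDI1 mice (log2 difference -0.68, SE 0.19, unadjusted p = 0.00387 and adjusted p = 0.998 with limma). Values do not overlap between genotypes in 0.699% of all genes. G6pc3, a widely expressed glucose-6-phosphatase, was at 231 ± 27.0 and 201 ± 12.6 (SD, n = 5 each). Of 16 regulators and partners, 14 were tested, 9 with a higher and 5 with a lower mean, and the median was 0.02 (-0.03 without Vil-Cre 5). Gnat3, the taste-cell G protein gustducin, was at 12.8 ± 4.23 and 8.27 ± 6.93 normalised counts (SD, n = 5 each).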

How the data were processed

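Single-end reads were trimmed (trimGalore!), mapped to GRCm38 plus the NDI1 sequence (STAR), quantified per gene (Salmon) and scaled with size factors (DESeq2) by the authors. What they deposited is a signal of normalised counts per gene. The annotation release and strand setting are not given in the sources used here. In every library 100% of values were whole multiples of 1 read within a tolerance of 0.001; for Vil-Cre 3 and 4 the step is too near 1 to exclude rounding, so count tests were also run without them. Size factors ranged 1.29-fold.

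Gene positions and lengths came from GENCODE M21, promoter windows from RefSeq. Genotypes were compared with limma 3.58.1 (R 4.3.3) on log2(value + 1), fitting a variance trend, and genes needed a normalised count of 10 or more in 5 or more mice. The log2(value + 1) scale understates changes of low genes. Benjamini-Hochberg adjustment covered all 14301 genes and the threshold was 0.05. Exact two-sided permutation tests used all 252 assignments, and 0.00794 is their smallest p. The tests were tried on simulated data. Genes named were the members, the 5 most like Slc5a1 and Slc2a2, NDI1 and Slc2a5. Per pathway list, the genes past the threshold or else the 2 with the smallest p were named. Slc2a3, Slc2a6, Hk2, Ms4a1 and Cd79a were chosen after their values were seen. Some genes that the rule takes are not reported here. Members and lists were chosen with earlier results of these data known. Replicates differed by more than sampling noise, so none was a duplicate. Alternatives were 2 pseudocounts, 2 filters, 2 scalings, 2 limma settings, DESeq2 1.42.0, edgeR 4.0.16, a replicate block and leaving out each mouse. The labels' replicate numbers did not pair mice. No per-sample column was left unused.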

Additional observations from a re-analysis of the deposited data

Results flagged for a closer look

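In 34 groups of 5 mice (17 genes in both genotypes), 2 had a value standing apart by Dixon's test, where chance flags about 1 in 20 groups. Slc5a1 in Vil-Cre 5 was 27464 normalised counts, while its 4 fellow controls had 40962 to 45819. Hk1 in Vil-Cre 4 was 386, while the remaining controls had 193 to 245.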

How the results depend on the processing

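With limma and the other planned settings, no transporter passed the threshold, and each kept its direction except Slc5a4a, which turned to -0.085 without Vil-Cre 5 and, in a scaling to 12 enterocyte markers chosen after seeing the data, to -0.10. That scaling took the same 0.29 off the log2 difference of every gene and moved the median of all genes from 0.01 to -0.28. By design, no member could change sides relative to that median. Leaving out 1 mouse at a time gave ranges of 0.17 to 0.35 for Slc5a1, -0.085 to 0.34 for Slc5a4a, 0.19 to 0.66 for Slc5a4b, 0.24 to 0.39 for Slc5a9, -0.49 to -0.16 for Slc2a1, 0.02 to 0.42 for Slc2a2 and 0.28 to 0.78 for Slc2a7, with the lowest value (for Slc2a1 the highest) reached without Vil-Cre 5 in all but Slc5a9. Genes past the threshold numbered 1 with limma on all mice, 1 to 3 when a mouse was left out, 2 with a minimum of 50, 2 with array weights, 31 with DESeq2 (16 higher, 15 lower, 0 members) and 1 with edgeR. On the 8 libraries without Vil-Cre 3 and 4, a choice made after seeing the data, DESeq2 called 276 (152 higher, 124 lower) including 1 member, Slc2a7 (1.03), and edgeR called 1. The cause was not tested.

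Replicate numbers in the labels gave no pairing, as same-numbered deviations correlated between -0.12 and 0.14. With a replicate block, 1 gene and 0 members passed. The log2 differences are the same with the block by design, since each number held 1 mouse per genotype.

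After rescaling libraries to equal totals, 8 of the 21 pairs passed, 4 positive and 4 negative, where Slc5a4b with Slc2a7 no longer did (adjusted p = 0.0664 by exact permutation) and Slc5a4b with Slc2a1 did (0.0383). With 1 mouse left out, in a check added after seeing the data for all but Vil-Cre 5, 0 to 10 passed, and 0 did with the enterocyte scaling. Signs turned for Slc5a9 with Slc2a2 (-0.0049) under equal totals, and for Slc5a1 with Slc2a1 (0.25) and Slc2a2 (-0.20) without Vil-Cre 5. Without the 2 most extreme mice the latter 2 were 0.0011 and -1.45e-05. All values without 2 mice kept the genotype means of all 10 mice. Those without Vil-Cre 5 were centred again on the mice kept, so the 2 sets are not directly comparable. Under the enterocyte scaling signs turned for Slc5a1 with Slc5a4a (-0.40), Slc5a4b (-0.24), Slc5a9 (0.27), Slc2a1 (0.67), Slc2a2 (-0.24) and Slc2a7 (-0.52). They also turned for Slc5a9 with Slc5a4a (-0.70), Slc5a4b (-0.28), Slc2a1 (0.76), Slc2a2 (-0.77) and Slc2a7 (-0.69). That scaling takes the same marker mean off both genes of a pair in each mouse, which alone can shift r or turn its sign. Its signs and its 0 passing pairs therefore do not test the relations. The per-kilobase levels moved by less than 1 SD over mice under every length, scaling and left-out mouse tried.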
